A study of Mus musculus with 3 samples.

Results

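The dual-specificity MAP kinase phosphatases were followed in mouse embryonic stem cells given BMP4, given the BMP antagonist noggin, or left untreated. The 10 genes Dusp1, Dusp2, Dusp4, Dusp5, Dusp6, Dusp7, Dusp8, Dusp9, Dusp10 and Dusp16 were taken by name, and every probe set that the platform annotation pairs with one of them was used. That gave 18 of the 45101 probe sets of the array, for 10 of the 18193 genes with a probe set of their own, and 0 of these probe sets was shared with another gene. The cells were undifferentiated R1 cells, a mouse embryonic stem cell line. They received BMP4 (20 ng/ml, 4 h), noggin (100 ng/ml, 4 h) or no treatment, and the labels give no time for the untreated cells. Each condition was measured on 1 Affymetrix array, 3 arrays in all, so no value has a replicate error, no test between conditions was possible, and differences are described by size alone.

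MAP kinases are switched on when both a threonine and a tyrosine of their activation loop are phosphorylated, and the dual-specificity phosphatases switch them off by removing both phosphates. The family divides by substrate. Dusp6, Dusp7 and Dusp9 are cytoplasmic enzymes that prefer ERK, and Dusp5 is a nuclear enzyme specific for ERK. Dusp8, Dusp10 and Dusp16 prefer the stress-activated kinases JNK and p38. Dusp1, Dusp2 and Dusp4 are nuclear, are induced early after stimulation and act on several MAP kinases. Several family members are transcribed in response to the kinase they inactivate and so act as feedback inhibitors. In mouse embryonic stem cells FGF4 acting through ERK favours the exit from self-renewal, BMP4 together with LIF favours self-renewal, and Dusp9 is known as a gene through which BMP4 lowers ERK activity.

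Values are log2 RMA expression values, on which a difference of 1 is a 2-fold difference. A gene was represented by its probe set with the highest mean and counted as measured when its highest value lay above a floor of 3.44 (the median over all probe sets and arrays), as it did for 11594 genes. All 8 markers of undifferentiated embryonic stem cells were above the floor on every array. Some markers of other cells were above the floor on at least 1 array. These were 4 of 7 for fibroblasts, 4 of 6 for primitive endoderm, 2 of 5 for trophoblast and 3 of 4 for neuroectoderm. For mesoderm, 3 of the 3 analysed here were above it. The BMP-responsive genes Id1, Id2 and Id3 were higher with BMP4 than without treatment by 2.76, 4.10 and 3.58. For noggin minus untreated they differed by −0.19, −0.49 and −0.26. Of the other BMP-SMAD check genes, Smad6 differed by 0.00, Smad7 by 0.16 and Msx2 by 0.06 with noggin. For the 24 probe sets of the poly-A spikes, added control RNAs, BMP4 minus untreated was below 0 in every case, at a median of −0.63. BMP4 minus noggin was also below 0 for all 24, at a median of −0.46. Noggin minus untreated was below 0 for 23 of the 24, at a median of −0.18. The part of these spike differences in the results was not tested.

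Of the 10 phosphatase genes, 9 were above the floor. On the BMP4 array 2 of these 9 were at least 2-fold higher than on the untreated array, Dusp9 and Dusp5, both ERK-directed, beside 0.0949% of all genes above the floor. They were also the 2 members at least 1.5-fold higher, beside 0.224% of all genes. None of the 9 was 2-fold or 1.5-fold lower with BMP4, beside 0.00863% and 0.0518% of all genes. On the noggin array none of the 9 was 1.5-fold higher or lower than on the untreated array, and Dusp6, with a difference of −0.24, was the member furthest from 0. Over all genes, 0.00863% were 1.5-fold higher and 0.069% were 1.5-fold lower with noggin. Of the JNK- and p38-directed genes, Dusp16 differed by −0.14 with BMP4 and Dusp10 was below the floor on all 3 arrays. Dusp8 differed by 0.00 with its representative probe set and by 0.17 with another above the floor.

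**Figure D1:**
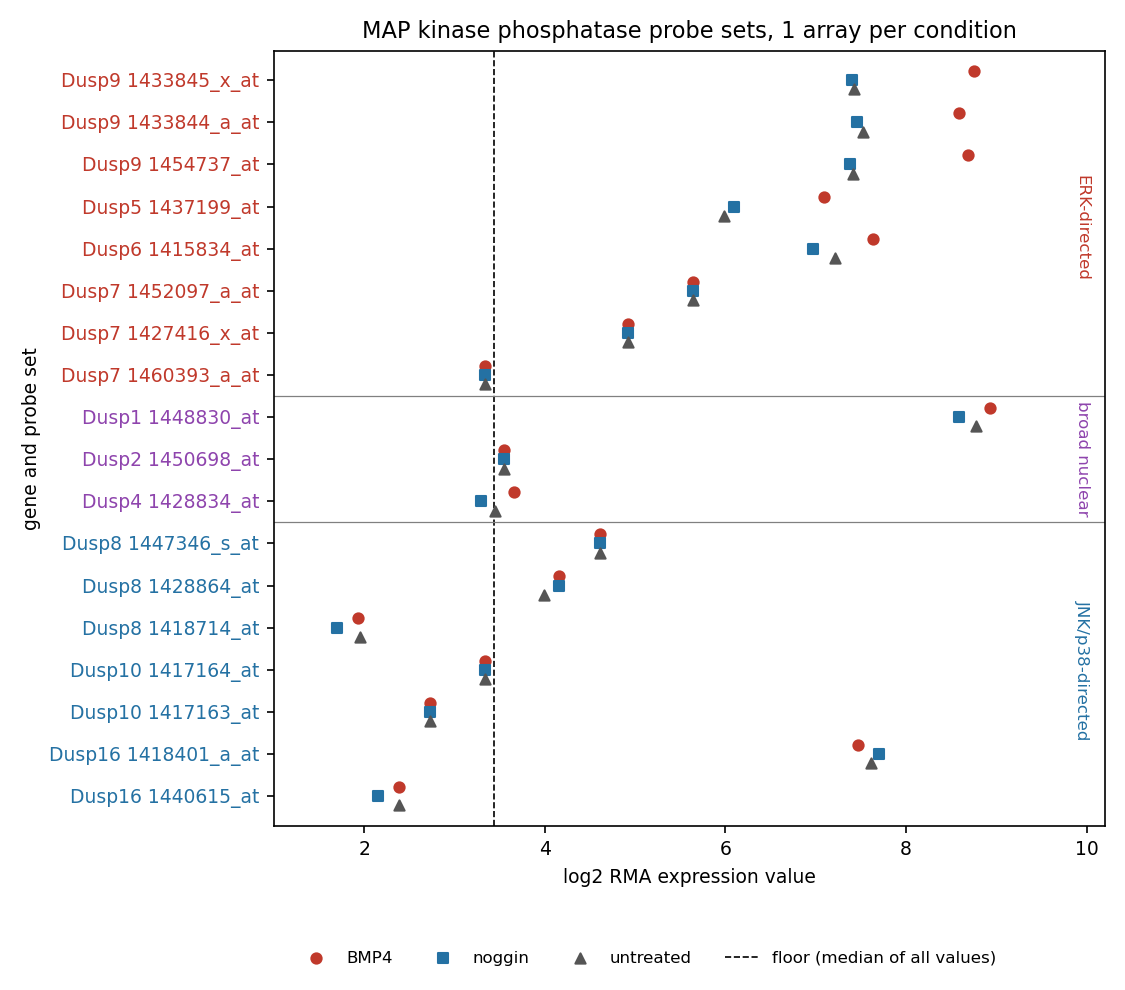
The log2 RMA value (horizontal axis) of each of the 18 probe sets is shown for the BMP4 (circle), noggin (square) and untreated (triangle) arrays, 1 point per array, with the floor of 3.44 as a dashed line. The 3 Dusp9 probe sets lie between 8.59 and 8.75 on the BMP4 array, apart from their noggin and untreated points, while the 3 Dusp7 probe sets coincide on the 3 arrays.

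Dusp9, the cytoplasmic ERK phosphatase whose gene is needed for placental development in mice, stood furthest from the untreated array among the members. Its probe set 1433845_x_at measured 8.75 with BMP4, 7.40 with noggin and 7.42 without treatment. Its probe set 1454737_at measured 8.68 with BMP4, 7.38 with noggin and 7.41 without treatment. The third, 1433844_a_at, measured 8.59 with BMP4, 7.46 with noggin and 7.52 without treatment. On each of the 3 probe sets the BMP4 array stood alone above an almost level pair of noggin and untreated arrays. All 3 were past 2-fold, and with Dusp5 they made 4 of the 13 phosphatase probe sets above the floor. The share was 0.139% over all 20122 probe sets above the floor. The differences between BMP4 and untreated cells were 1.33, 1.27 and 1.07, and those between noggin and untreated cells were −0.02, −0.03 and −0.07. The 3 probe sets come from the same annotated transcript record, so they are repeat measurements of 1 transcript on the same RNA and not replicates of the treatment. Their SD around the gene's mean difference was 0.14 for BMP4 minus untreated, close to the 0.13 found over the 13666 probe sets of the 5139 genes with more than 1 above the floor. By its representative probe set, Dusp9 was 2.51-fold higher with BMP4 and ranked 6 from the top among the 11594 genes.

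Dusp5, which both dephosphorylates ERK and holds it in the nucleus, was the other member past 2-fold. Its single probe set, 1437199_at, measured 7.09 on the BMP4 array, 6.09 on the noggin array, and 5.98 on the array of untreated cells. As with Dusp9, the BMP4 array was high and the other 2 lay close together, here with noggin slightly above untreated. The difference between BMP4 and untreated cells was 1.11, a 2.16-fold higher value, at rank 9 from the top. The difference between noggin and untreated cells was 0.12, and 17.4% of all genes differed at least that much in either direction. No second probe set was there to set beside it.

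Dusp6, the cytoplasmic phosphatase that is widely used as a readout of FGF-ERK signalling, had a graded pattern. Its single probe set, 1415834_at, measured 7.63 on the BMP4 array, 6.97 on the noggin array, and 7.21 on the array of untreated cells. The noggin value lay below the untreated value and the BMP4 value above it, unlike Dusp5 and Dusp9, for which noggin and untreated cells were nearly equal. The difference was 0.42 for BMP4 minus untreated, at rank 62 from the top, and −0.24 for noggin minus untreated, at rank 289 from the bottom. Differences at least that large in either direction were found for 0.888% of genes with BMP4 and 3.67% with noggin. Both comparisons share the untreated array, so a low or high value of that array would move both.

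Dusp7, the remaining cytoplasmic ERK phosphatase, had exactly the same value on the 3 arrays in each of its 3 probe sets. Those values were 5.65 for 1452097_a_at, 4.92 for 1427416_x_at and 3.34 for 1460393_a_at, the last below the floor. The 3 arrays could not be told apart on any of them. Exact equality to 6 decimals was found for 26.1% of all probe sets. Median polish, a step of RMA, can give such ties when few arrays are processed, so small true differences of Dusp7 may be hidden. Of the 18 phosphatase probe sets, 6 were exactly equal on the 3 arrays: 3 of Dusp7 and 1 each of Dusp2, Dusp8 and Dusp10.

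Promoter sequences of 300 bases, from 250 before to 50 after the annotated start, were found in RefSeq (build GRCm38.p6) for 8 of the 10 genes, all but Dusp4 and Dusp9. Those of Dusp5 and Dusp9 were planned to be shown, and Dusp6 was taken in place of Dusp9, which had none. Dusp5 and Dusp6 are both ERK-directed, had their highest value on the BMP4 array, and differ in what the noggin array shows. The Dusp5 window is chr19:53528895-53529194 and the Dusp6 window is chr10:99262981-99263280, both on the plus strand and written 5′ to 3′, with capitals for the motif GGCGCC, the motif GGAGCC and CArG boxes.
Dusp5: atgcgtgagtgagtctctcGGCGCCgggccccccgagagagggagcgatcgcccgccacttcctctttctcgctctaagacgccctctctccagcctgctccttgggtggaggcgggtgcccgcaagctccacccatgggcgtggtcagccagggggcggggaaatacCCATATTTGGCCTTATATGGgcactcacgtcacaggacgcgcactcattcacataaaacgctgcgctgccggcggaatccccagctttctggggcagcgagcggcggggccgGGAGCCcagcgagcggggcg
Dusp6: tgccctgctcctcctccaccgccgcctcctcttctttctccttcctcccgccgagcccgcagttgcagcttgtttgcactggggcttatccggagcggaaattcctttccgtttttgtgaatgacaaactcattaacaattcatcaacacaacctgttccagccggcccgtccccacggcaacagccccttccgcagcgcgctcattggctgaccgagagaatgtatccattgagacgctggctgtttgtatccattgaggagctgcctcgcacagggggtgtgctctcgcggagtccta
The motif GGCGCC and the similar motif GGAGCC are known from BMP-SMAD response elements, and the CArG box is the element bound by serum response factor, a partner of ERK-regulated transcription factors. In the Dusp5 window GGCGCC begins at base −231 from the annotated start, GGAGCC begins at base 31, and CArG boxes at bases −82 and −72, one directly after the other. The Dusp6 window held none of the 3. The CArG box was added to the search after the Dusp5 sequence had been read.

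Each motif was searched on both strands, and a window counted once however many matches it held. GGCGCC was found in 4 of the 8 windows, those of Dusp5, Dusp7, Dusp1 and Dusp2, and in 11.9% of all 32851 RefSeq promoter windows of this length. GGAGCC was found in 6 of 8, all but Dusp6 and Dusp10, and in 30.8% of all windows. A CArG box was found in Dusp5 alone of the 8, and in 1.63% of all windows. TGACGTC, the core of the cAMP response element, was found in Dusp1 and Dusp8 and in 3.21% of all windows. The SMAD-binding letters CAGACA were found in Dusp1 and Dusp2 and in 21% of all windows. TGANTCA, bound by AP-1, and CGGAAGT, a form of the site bound by ETS factors, were in 0 of 8, against 7.81% and 6.42% of all windows. Other forms of the ETS site were not searched. The windows of these genes were 57.3% to 78.7% G or C, against a median of 52.7% over all windows, and GC-rich letters turn up more often in GC-rich sequence. Both of the SMAD-type motifs occurred in Dusp5, which was higher with BMP4, in Dusp1, which differed by 0.15, and in Dusp7 and Dusp2, which had equal values on the 3 arrays.

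Among the broad nuclear phosphatases, Dusp1, an immediate-early gene, measured 8.93 on the BMP4 array, 8.59 on the noggin array, and 8.78 on the array of untreated cells with its probe set 1448830_at. Its values had the same order as those of Dusp6, with smaller steps: 0.15 for BMP4 minus untreated and −0.19 for noggin minus untreated. Dusp4, a nuclear phosphatase of ERK and JNK, measured 3.66 with BMP4, 3.29 with noggin and 3.45 without treatment with its probe set 1428834_at. The order was again BMP4, untreated, noggin, at differences of 0.21 and −0.16, but the untreated value lay at the floor and the noggin value below it. Dusp4 counted as measured only through its BMP4 and untreated values, so its lower sign with noggin was fixed by that. Dusp2, best known from activated lymphocytes, measured 3.55 on all 3 arrays with its probe set 1450698_at, just above the floor. Differences at least as large as that of Dusp1 with BMP4 were found for 12.5% of genes, and at least as large as that of Dusp4 for 6.23%.

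Of the phosphatases directed at JNK and p38, Dusp16 was measured well above the floor by 1 of its 2 probe sets. That probe set, 1418401_a_at, measured 7.46 on the BMP4 array, 7.70 on the noggin array, and 7.61 on the array of untreated cells. The BMP4 array was lowest and the noggin array highest, the reverse of the order found for Dusp6, Dusp1 and Dusp4. The differences were −0.14 for BMP4 minus untreated and 0.09 for noggin minus untreated, and 13.3% and 23.4% of all genes differed at least that much. The second Dusp16 probe set, 1440615_at, lay below the floor, at 2.39 with BMP4, 2.15 with noggin and 2.39 without treatment. With both probe sets averaged, Dusp16 differed by −0.07 for noggin minus untreated, but that mean takes in the probe set below the floor.

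Dusp8, known from brain and heart, had a top probe set, 1447346_s_at, with 4.62 on all 3 arrays. The probe set 1428864_at measured 4.16 with BMP4, 4.16 with noggin and 3.99 without treatment, so both treated arrays lay above the untreated one by 0.17. The third, 1418714_at, lay far below the floor, at 1.93 with BMP4, 1.70 with noggin and 1.95 without treatment. Its lower noggin value is a difference within the background, and the 5th percentile over probe sets was likewise lower with noggin, at 1.60 against 1.82 in untreated cells. Dusp10, a phosphatase with a strong preference for JNK and p38, had no probe set above the floor. The probe set 1417164_at measured 3.34 on all 3 arrays, and 1417163_at measured 2.73 on all 3 to the second decimal. Nothing can be said about its direction.

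**Figure D2:**
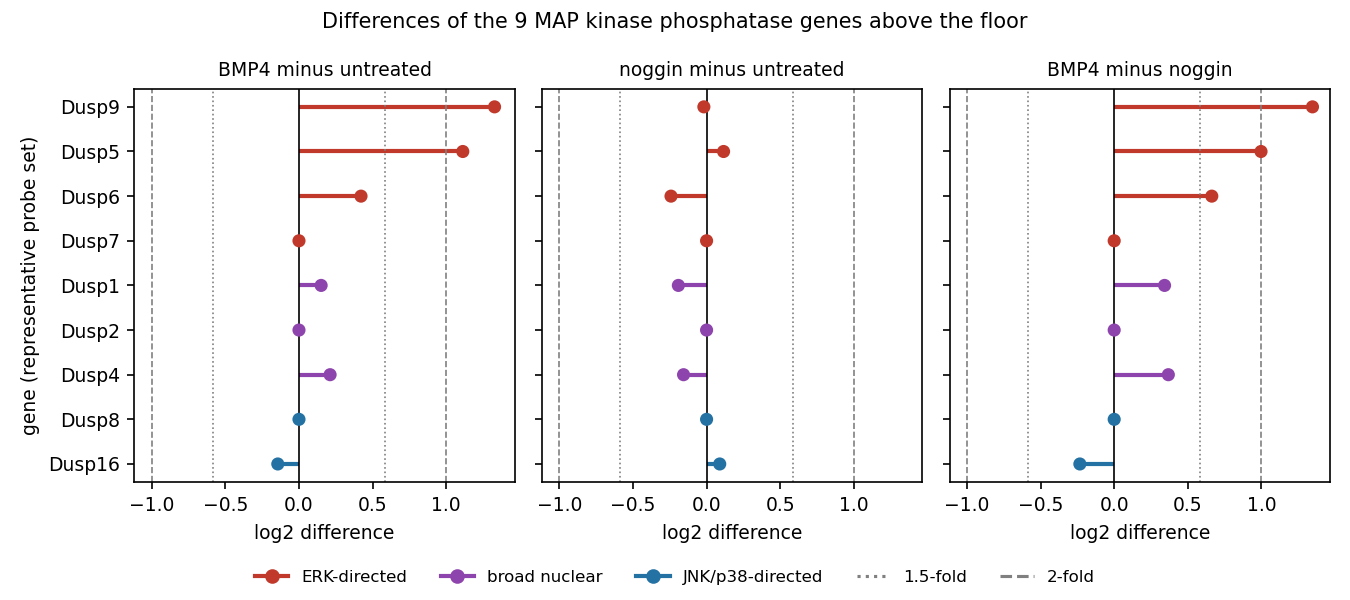
Log2 differences (horizontal axis) of the 9 phosphatase genes above the floor are shown for BMP4 minus untreated, noggin minus untreated and BMP4 minus noggin, 1 point per gene with no error bars since each condition had 1 array. Dusp9 and Dusp5 pass the dashed 2-fold line in the left panel at 1.33 and 1.11, and none of the 9 genes reaches the dotted 1.5-fold line in the noggin panel.

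The ERK-directed group was then set beside the group directed at JNK and p38. With BMP4, 3 of the 4 ERK-directed genes were higher than in untreated cells, none was lower and 1 was equal, with a median difference of 0.77. Of the 2 measured genes directed at JNK and p38, none was higher, 1 was lower and 1 was equal, with a median of −0.07. The broad nuclear group had 2 of 3 genes higher and 1 equal, with a median of 0.15. Over all 11594 genes the median was 0.00, with 24.8% higher, 35.6% lower and 39.6% equal. The ERK-directed median rests on genes that differ widely among themselves, from 0.00 for Dusp7 to 1.33 for Dusp9. It was 0.21 with Dusp1, Dusp2 and Dusp4 added, which is the value of Dusp4, a gene near the floor. The median for JNK and p38 was 0.17 with plain-suffix probe sets (names ending in _at with no letter code before it), on Dusp8 alone. With 4 and 2 measured genes the difference between the groups is a description of these arrays.

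With noggin the groups lay closer together. The median difference from untreated cells was −0.01 for the ERK-directed genes, of which 1 was higher, 2 were lower and 1 was equal. It was 0.04 for the genes directed at JNK and p38, 1 higher and 1 equal, and −0.16 for the broad nuclear genes, 2 lower and 1 equal. The last median is the value of Dusp4, whose lower sign was fixed because only its noggin value lay below the floor. All genes had a median of 0.00, with 26.8% higher and 36.1% lower.

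BMP4-treated cells were also set directly against noggin-treated cells, which compares added BMP4 with added BMP antagonist and does not use the untreated array. How far noggin blocked BMP signalling was not tested. At least 1.5-fold higher with BMP4 were 3 of the 9 genes, all ERK-directed, beside 0.38% of all genes. Dusp9 was higher by 1.35, at rank 7 from the top, Dusp5 by 0.997, at rank 14, and Dusp6 by 0.66, at rank 36. Dusp9 was the single member past 2-fold, beside 0.112% of all genes, because Dusp5, at 1.996-fold, lay just short of it; none of the 9 was 2-fold or 1.5-fold lower, beside 0.00863% and 0.138% of all genes. By probe set, 3 of the 13 above the floor were past 2-fold, all of Dusp9, beside 0.179% of all 20122 above it. Dusp4 and Dusp1 were higher by 0.37 and 0.34, and Dusp16 differed by −0.23. The higher sign of Dusp4 was fixed, since only its noggin value lay below the floor. The median was 0.83 for the ERK-directed genes and −0.12 for those directed at JNK and p38, against 0.00 for all genes. With Dusp1, Dusp2 and Dusp4 added the ERK-directed median was 0.37, the value of Dusp4. Dusp16 differed by 0.0010 with its probe sets averaged, including its probe set below the floor.

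**Figure D3:**
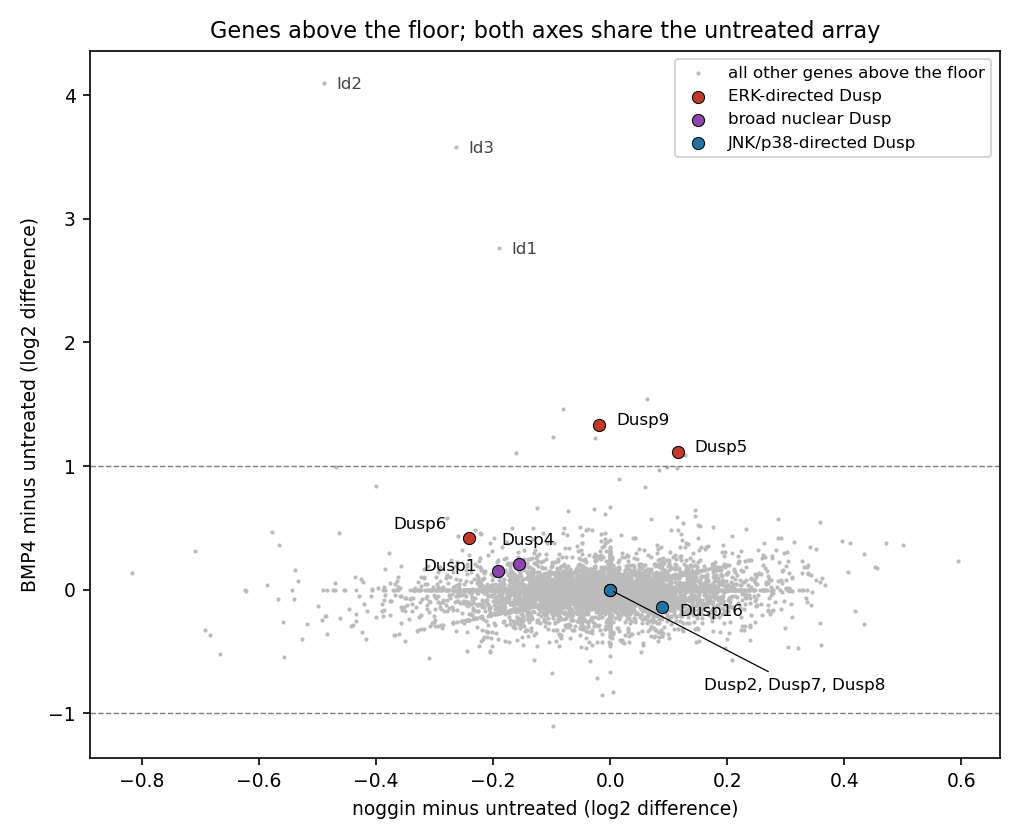
Each of the 11594 genes above the floor is placed by its log2 difference for noggin minus untreated (horizontal) and for BMP4 minus untreated (vertical), with the phosphatases in colour and Id1, Id2 and Id3 named; both axes share the untreated array, which by itself ties them together. Dusp9 and Dusp5 lie above the dashed 2-fold line, Dusp6 lies at 0.42, and Dusp2, Dusp7 and Dusp8 coincide at the origin.

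The genes nearest to Dusp9 in the pair of differences from untreated cells, measured as the distance between points on the log2 scale, were Coch at 0.11, Malat1 at 0.12 and Hnrnpu at 0.15. Coch, which encodes a secreted matrix protein, measured 7.48 with BMP4, 6.23 with noggin and 6.26 without treatment, with 1 probe set. Malat1, a nuclear non-coding RNA, had 7 probe sets above the floor, which gave 0.00 to 2.34 for BMP4 minus untreated. Hnrnpu, a nuclear RNA-binding protein, had 5, which gave −0.07 to 1.46. Nearest to Dusp5 were Ccn2 at 0.03, Sox7 at 0.13 and Snhg11 at 0.13; the 2 probe sets of Snhg11 above the floor disagreed, at −0.07 and 0.98 for BMP4 minus untreated. Ccn2, a matrix-associated growth factor, measured 6.97 with BMP4, 6.02 with noggin and 5.89 without treatment. Sox7, an endoderm and endothelial transcription factor, measured 4.73 with BMP4, 3.84 with noggin and 3.74 without treatment. These likenesses rest on 3 arrays.

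Sox7 is also one of the 6 primitive endoderm markers, of which 3 were higher with BMP4, none was lower and 1 was equal among the 4 above the floor. The summed linear value of the marker list was 109 with BMP4, 86.2 with noggin and 84.1 without treatment. Of the defining markers Gata6 was at 5.20 with BMP4, 4.82 with noggin and 4.67 without treatment, a difference of 0.52 for BMP4 minus untreated, and its 2 probe sets above the floor gave 0.52 to 0.90. Gata4 and Afp were below the floor on all 3 arrays. Of the 3 mesoderm markers analysed here 2 were higher and 1 lower with BMP4. Mixl1, at 3.67 with BMP4, 3.44 with noggin and 3.44 without treatment, passed the floor on the BMP4 array alone. Its higher sign with BMP4 was fixed by that. The summed value of the 3 mesoderm markers was 108 with BMP4, 80.0 with noggin and 84.9 without treatment. Of the 4 fibroblast markers above the floor, 3 were lower and 1 higher for BMP4 minus untreated, with a median of −0.24. S100a4 was lowest at −0.55. All 4 were lower for BMP4 minus noggin. However, Postn, at 3.00 with BMP4, 3.55 with noggin and 3.32 without treatment, passed the floor on the noggin array alone. Its lower sign for BMP4 minus noggin was fixed by that. The summed value of the 7 fibroblast markers was 98.1 with BMP4, 112 with noggin and 114 without treatment. The part of these cells in the phosphatase values was not tested, and in bulk RNA more cells of a type and more RNA per cell cannot be told apart. The summed value of the embryonic stem cell markers was 23358 with BMP4, 22717 with noggin and 22829 without treatment.

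Other genes of the ERK pathway were then described. Of 24 FGF-ERK feedback and target genes, 19 were above the floor, and 0 were 1.5-fold higher or lower with BMP4, beside 0.224% and 0.0518% of all genes. With BMP4 7 were higher, 9 lower and 3 equal, with a median of 0.00. Spry4, a feedback inhibitor of receptor tyrosine kinase signalling, was highest in that list at 0.48, measuring 7.93 with BMP4, 7.42 with noggin and 7.45 without treatment. Its 4 probe sets above the floor gave 0.09 to 0.48. The immediate-early gene Ier2 followed at 0.25. Egr1, an immediate-early transcription factor induced by ERK, was lowest at −0.21, and Ier3 was at −0.20. The ETS factors Etv4 and Etv5 differed by 0.21 and −0.17, and Fgf4, the main ERK-activating ligand of these cells, by 0.19. Their probe sets above the floor gave 0.00 to 0.21 for Etv4, −0.17 to 0.06 for Etv5 and 0.15 to 0.40 for Fgf4. With noggin 8 of the 19 were higher, 6 lower and 5 equal, again with a median of 0.00, from Fos at −0.33 to Fgfr2 at 0.24.

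The stress kinase side was set out in the same way. Of 19 genes listed as JNK and p38 effectors, 15 were above the floor. The list also holds the Gadd45 genes, which act upstream of these kinases. With BMP4 8 of the 15 were higher, 2 lower and 5 equal, with a median of 0.01. The member past 1.5-fold, 1 of 15 beside 0.224% of all genes higher and 0.0518% lower, was Gadd45b, an activator of the kinase upstream of p38 and JNK, which measured 8.20 with BMP4, 7.41 with noggin and 7.54 without treatment. Its difference of 0.66 between BMP4 and untreated cells was not shared by all of its 3 probe sets above the floor, which gave 0.00 to 0.66, and with its probe sets averaged it did not pass 1.5-fold. Gadd45a, its paralogue, differed by 0.22 with BMP4 and by −0.19 with noggin. The AP-1 genes Junb and Jund differed by 0.08 and 0.13 with BMP4. With noggin 5 of the 15 were higher, 5 lower and 5 equal.

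The atypical dual-specificity phosphatases and their relatives lack the kinase-binding domain of the 10 genes above. Of 19 such genes 13 were above the floor, and with BMP4 0 were past 1.5-fold, beside 0.224% of all genes higher and 0.0518% lower, at which shares a list of this size would hold few or none. With BMP4 3 were higher, 3 lower and 7 equal, with a median of 0.00. Dusp14 was highest, measuring 6.72 with BMP4, 6.36 with noggin and 6.50 without treatment. The slingshot phosphatase Ssh1, which acts on cofilin, was lowest at −0.38, with 4 probe sets above the floor that gave −0.38 to 0.10. With noggin 3 were higher, 4 lower and 6 equal, from −0.14 for Dusp14 to 0.14 for Dusp27.

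**Figure D4:**
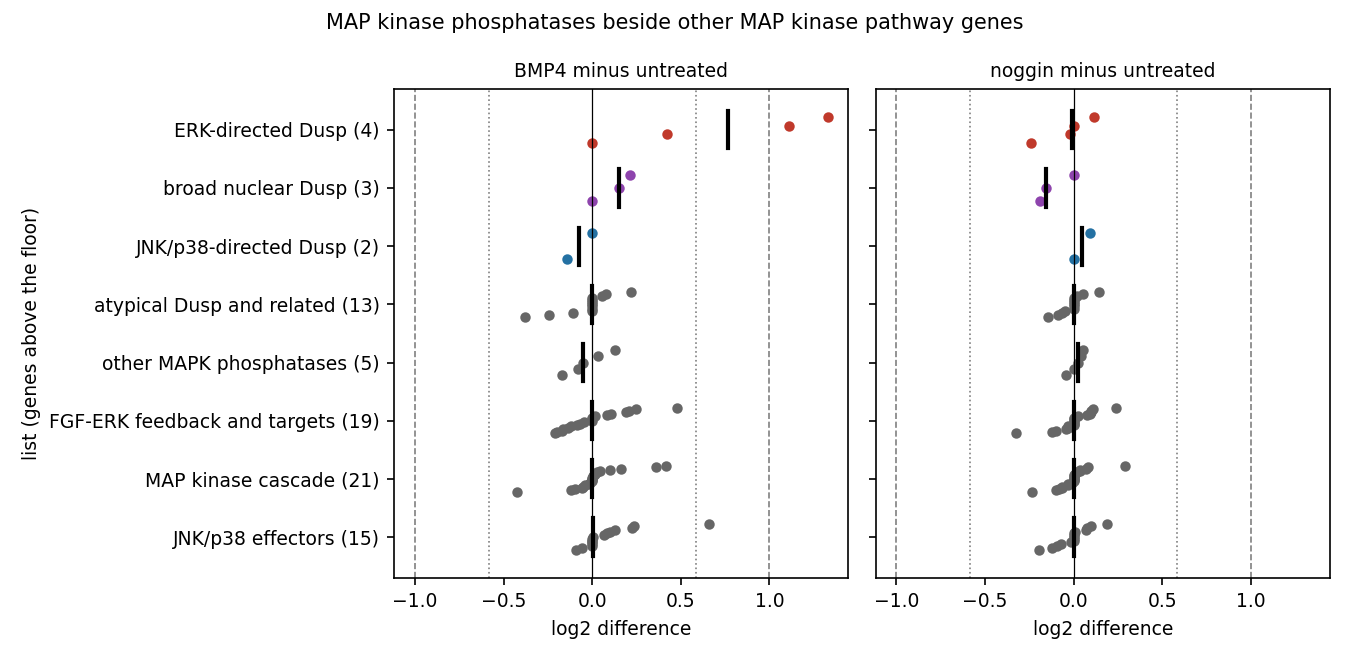
Log2 differences (horizontal axis) are shown for BMP4 minus untreated and noggin minus untreated, 1 point per gene above the floor, with the median of each list as a black bar and the number of genes in brackets; dotted and dashed lines mark 1.5-fold and 2-fold. With BMP4 the ERK-directed median is 0.77 and the medians of the other MAP kinase lists lie near 0, with Gadd45b at 0.66 the furthest of their points.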

How the data were processed

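Expression was measured on 3 Affymetrix arrays, 1 each for BMP4-treated, noggin-treated and untreated R1 cells. The authors deposited log2 RMA values for each probe set, per the submitters' processing notes; the RMA version and settings are not given in the sources used here. RMA makes the distributions of the arrays alike, so a general shift in RNA content would be hidden. Precision is limited by the number of arrays.

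By the platform annotation 34945 probe sets had 1 gene, 932 had several and were left out, and 9160 had none. Of the 34945, 34741 matched the RefSeq table, which changed 0 symbols. Values were used as deposited. Differences were taken in Python 3.11.15 with pandas 2.3.3, counted at 2-fold and 1.5-fold, and set beside the share of all genes past the same limit. The computation was tested on simulated data. The members and gene lists were chosen with earlier results of these data known. Named were the 10 members, of each list those past 1.5-fold or furthest from 0, and the 3 genes nearest to Dusp9 and to Dusp5; other list genes (Ier3, Etv4, Etv5, Fgf4, Gadd45a, Junb, Jund, Gata6, S100a4, Mapk8, Mapk14) were picked after their values were seen. Alternatives were 2 other scalings (median centring; loess, span 0.3), 3 other rules for a gene's probe set, 2 other floors, and other groupings.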

Additional observations from a re-analysis of the deposited data

How the results depend on the processing

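Spread is the SD among probe sets of 1 gene, 0.13, 0.11 and 0.16 for BMP4 minus untreated, noggin minus untreated and BMP4 minus noggin. The number of phosphatase genes past 2-fold and past 1.5-fold stayed within 1.5 times its value under every alternative tried. Median centring removed 0.00 in every comparison, so it changed no value and is no check. Loess, whose largest correction was 0.03, moved no result beyond the spread. The ERK-directed median for BMP4 minus untreated was 1.11 with plain-suffix probe sets alone and with the floor at the 75th percentile, which leave out Dusp7, 1.07 over probe sets, and 0.21 with Dusp1, Dusp2 and Dusp4 added. For BMP4 minus noggin it was 0.997 with plain-suffix probe sets, with the higher floor and over probe sets, and 0.37 with the 3 genes added. The median of the JNK- and p38-directed genes was 0.17 with plain-suffix probe sets for both BMP4 and noggin minus untreated, where it rests on Dusp8 alone. Genes of the JNK and p38 effector list past 1.5-fold numbered 0 with probe sets averaged, for BMP4 minus untreated and BMP4 minus noggin, since Gadd45b no longer passed. All genes past 2-fold for BMP4 minus noggin numbered 8 with probe sets averaged and 9 with plain-suffix probe sets, against 14. With probe sets averaged, including its probe set below the floor, Dusp16 differed by −0.07 for noggin minus untreated and by 0.0010 for BMP4 minus noggin. No paired analysis was possible because each group has 1 array. With 1 array per condition no replicate could be left out, and differences of Dusp2 and Dusp4, near the floor, and of Dusp10, below it, are limited by signal.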

Other observations

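Of 28 MAP kinase cascade genes, 22 were analysed here and 21 were above the floor. With BMP4 9 were higher, 8 lower and 4 equal, with a median of 0.00, and 0 passed 1.5-fold, beside 0.224% of all genes higher and 0.0518% lower. Mapk8, a JNK kinase, and Mapk14, a p38 kinase, were at 0.00 and 0.02, although their 5 probe sets each gave 0.00 to 0.55 and 0.00 to 0.52. Ksr1, a scaffold of the ERK cascade, was highest of the genes at 0.42, although its 3 probe sets above the floor gave −0.01 to 0.42. Map3k7, the kinase that links TGF-beta and BMP receptors to JNK and p38, was at 0.36, with 4 probe sets from −0.19 to 0.36. Map3k4, which Gadd45 proteins activate, was lowest at −0.42, measuring 6.89 with BMP4, 7.33 with noggin and 7.31 without treatment, and its 4 probe sets gave −0.42 to 0.00. With noggin 8 were higher, 8 lower and 5 equal.

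MAP kinase phosphatases outside the Dusp family were also listed. Of 8 listed, 5 were above the floor, 2 of them higher and 3 lower with BMP4, with a median of −0.05. Ppm1d, a stress-induced serine-threonine phosphatase that acts on p38, was highest at 0.13, and Ppm1b was lowest at −0.17.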
